A study of Mus musculus with 4 samples.

Results

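The tripartite motif (TRIM) genes of the mouse other than Trim25 were described across the immune cells of MC38 tumours. Members were all genes with a symbol that begins with Trim followed by a number, Trim25 left out, which gave 67 of the 32285 genes measured. MC38 is a mouse colorectal tumour line, and tumours were grown under the skin after injection of 100000 cells into 8-week-old mice. Cells with the leukocyte antigen CD45 were sorted by flow cytometry and profiled by droplet single-cell RNA sequencing. The study has 4 libraries, 2 of WT hosts (WT-1 and WT-2) and 2 of hosts in which Trim25 was conditionally knocked out (cKO-1 and cKO-2). The series title places the ablation of Trim25 in T cells. No source used here gives the Cre driver, the deleted exons or the number of animals per library, and every host of both genotypes carried the same MC38 tumour. The study's title ties TRIM25 to VISTA, a checkpoint protein, and the comparisons here ask where the related genes are expressed and whether any is higher where Trim25 is deleted.

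Most TRIM proteins have a RING domain, B-box domains and a coiled coil, followed by a C-terminal part that differs between subfamilies. The RING domain makes many of them E3 ubiquitin ligases, enzymes that attach ubiquitin to a target protein. TRIM25 ubiquitinates the RNA sensor RIG-I, several relatives restrict viruses or adjust the sensing of nucleic acids, and many are induced by interferon, while TRIM24, TRIM28 and TRIM33 act on chromatin in the nucleus.

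The libraries held 8533 to 12318 cell barcodes and 96751399 to 127449324 unique molecular identifiers (UMIs), and 8205 to 12092 cells per library were kept. Each pair of libraries shared 42 to 59 barcodes. The sample labels name a tumour cell line as the cell type, but the cells clustered into 16 named classes that were mostly immune cells. Class names stand for clusters that resemble a class by its markers, so "monocyte" means monocyte-like. Levels are in CPM, the UMIs of a gene for each 1000000 UMIs of its class in its library. The summed level of the T cell markers was 3671 to 4182 CPM in all T cells and 17.9 to 27.9 CPM in monocytes. "All T cells" joins the CD8 T, CD4 conventional T and regulatory T (Treg) classes, 3771 cells. The CD4 conventional class includes a cluster of 183 cells, cluster 16, that was led by cycling genes and had no CD4 marker among its 10 leading genes. Cd4 stood there at 41.1 CPM and Cd8a at 242 CPM, against 338 and 29.6 CPM in cluster 3, the rest of the class, so the results of this class are also given without it where they change. A class of 782 fibroblast-like cells had little mRNA of the CD45 gene (Ptprc, 110 ± 25.6 CPM, SD, n = 4, against 2289 CPM in all T cells). Rhox5 at 682 ± 53.2 CPM was among its 10 leading genes with Col6a1, Col6a3 and Sparc. The fibroblast markers Col1a1 (485 CPM) and Dcn (355 CPM) were not among these 10 genes. Whether these are normal fibroblasts was not tested, and the class is called fibroblast-like by its markers alone. A group of 5650 cells with a median of 1310 UMIs stayed unnamed and is not described.

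With the 3′ kit named in the labels each mRNA gives UMIs at its 3′ end, and CPM levels then need no division by gene length. The barcodes in the files are longer than that kit's, so the chemistry is not settled, and levels of different genes are compared on the labels' word. Runs of 4 values are in the order WT-1, WT-2, cKO-1, cKO-2, and mean ± SD is over these 4 libraries unless stated. A class level is a sum over cells, so fewer cells with the mRNA and less mRNA per cell cannot be told apart.

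Trim25, the targeted gene, was lower in both cKO libraries in all T cells and was still detected. Its level there was 64.7, 60.3, 48.8 and 43.8 CPM, a log2 fold change of -0.41 ± 0.11 (SE). The unadjusted p was 0.00342, and edgeR's quasi-likelihood test adjusted over all genes gave 0.237. Of all genes tested in these cells, 22.3% were lower in both cKO libraries. In monocytes Trim25 stood at 274, 291, 254 and 278 CPM, and in macrophages at 138, 143, 137 and 144 CPM, so the genotypes overlapped in both. The difference of the genotype effect between T cells and the myeloid classes was -0.21 ± 0.14 on the log2 scale (edgeR adjusted p 0.732). Where in the transcript the deletion lies is not known here, and UMIs counted at the 3′ end need not fall inside it. Monocyte marker mRNA was found in the T cell sums, as given below, and Trim25 stood higher in monocytes. The part of monocyte RNA in the Trim25 level of T cells was not tested. The genotype comparisons of the relatives below are therefore between libraries labelled cKO and WT. Trim25 mRNA was lower in both cKO libraries of T cells and still detected.

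Among the 67 members, 65 had at least 1 UMI and 2 had none (Trim61 and Trim75). At 1 CPM or more, 29 members were found in all 16 classes, 16 in some of them and 22 in none. None of these 22 had more than 46 UMIs over all cells, while 36 members had more than 1000. The UMIs were concentrated in a few genes. Trim30a had 392832 UMIs and Trim30d had 144017. The next was Trim12c with 38353, followed by Trim12a with 34271, Trim34a with 34080, Trim33 with 29513 and Trim14 with 28645. Trim30a, Trim30d, Trim12c, Trim12a and Trim34a lie in 1 block on chromosome 7.

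After Trim30a and Trim30d, the order of the members differed by class. In all T cells the next were Trim12a (105 ± 11.5 CPM), Trim12c (104 ± 5.69), Trim34a (89.9 ± 8.59), Trim33 (86.1 ± 7.81), Trim59 (85.5 ± 11.1), Trim14 (69.2 ± 5.03), Trim28 (63.0 ± 2.98) and Trim44 (61.7 ± 2.07), and neighbours in this order overlapped over the libraries apart from Trim59 and Trim14. In monocytes they were Trim30c (150 ± 15.2 CPM), Trim30b (130 ± 11.7), Trim12c (105 ± 11.4), Trim34a, Trim14, Trim12a, Trim26 and Trim33 (48.4 ± 2.95). In macrophages Trim14 (60.2 ± 5.36 CPM), Trim33 (57.0 ± 4.74), Trim34a (49.0 ± 1.71), Trim28, Trim44, Trim12c, Trim12a and Trim26 (38.8 ± 3.09) followed. Trim30b and Trim30c were thus among the 10 highest members in monocytes and not in T cells or macrophages.

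**Figure D1:**
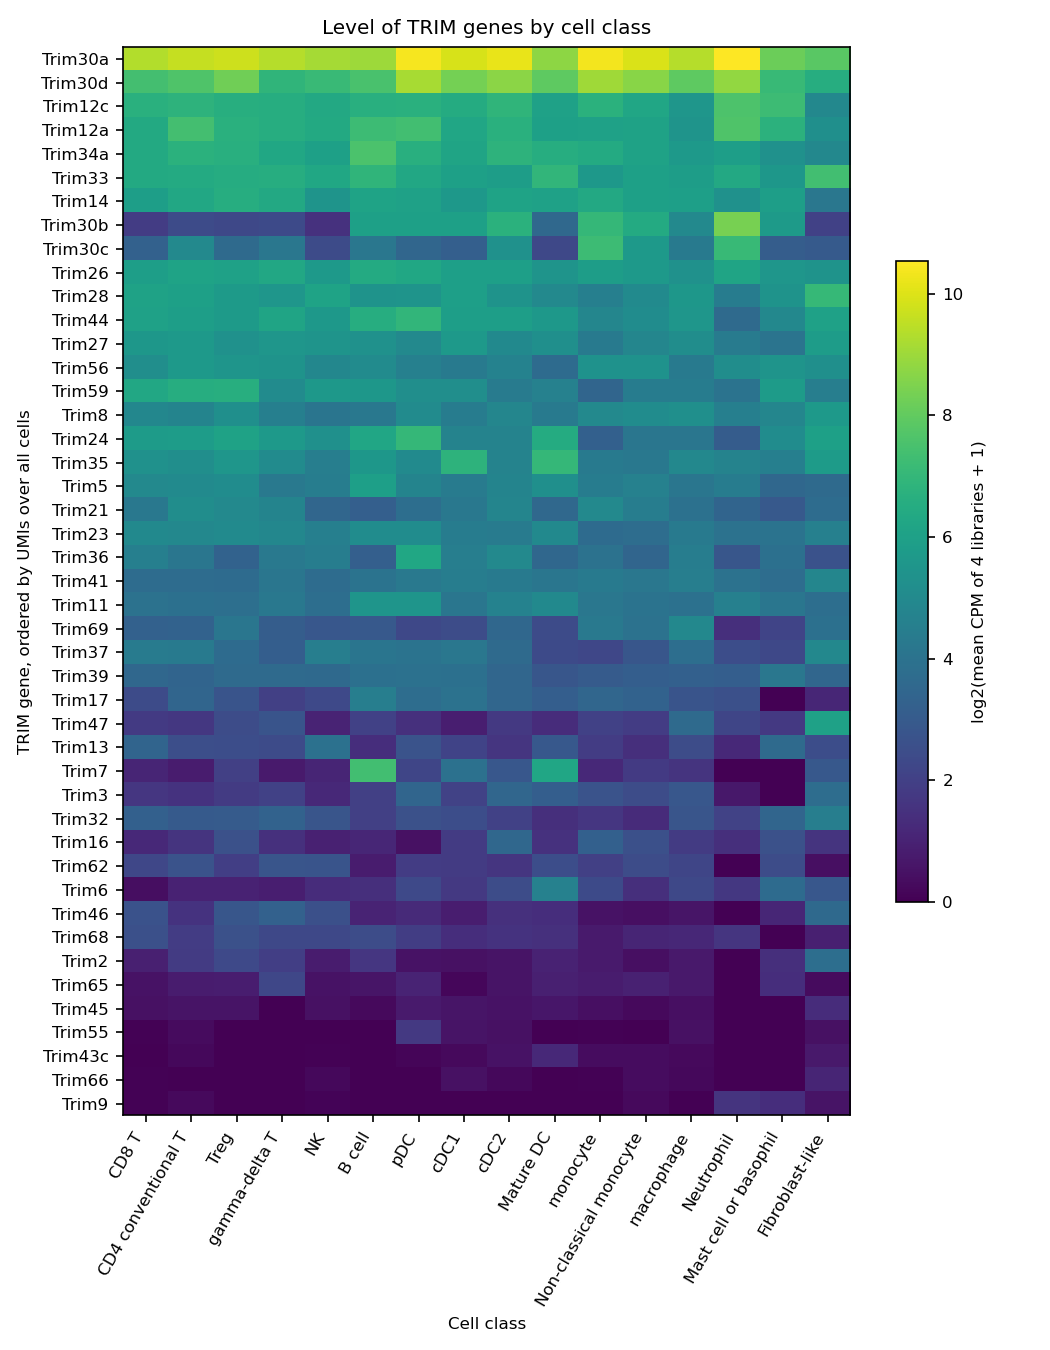
Level of the 45 TRIM genes that reached 1 CPM in at least 1 of the 16 classes, as log2 of the mean CPM of the 4 libraries plus 1 (colour), with genes as rows in the order of their total UMIs and classes as columns. Trim30a is the highest member in every class and Trim30d is among the 4 highest, whereas Trim30b is low in the T and NK classes and Trim7 stands out in B cells.

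The 4 striated muscle genes, Trim54, Trim55, Trim63 and Trim72, had between 14 and 86 UMIs each. Trim55 reached 1 CPM in plasmacytoid dendritic cells (pDC) alone, at 2.02, 5.85, 0 and 1.45 CPM. The other 3 muscle genes reached 1 CPM in no class.

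The interferon-inducible or antiviral list held 12 members, and 11 of them reached 1 CPM in all 16 classes. The exception was Trim34b, with 46 UMIs in all. Including Trim30a itself, 10 members lie within 500 kb of it and form a block between chr7:104218793 and chr7:104507849 on GRCm38 (protein-coding genes of GENCODE vM21). These are Trim6, Trim34a, Trim5, Trim12a, Trim34b, Trim12c, Trim30b, Trim30c, Trim30a and Trim30d. Trim30a, which lies at chr7:104409025-104465193 on the minus strand, is known to be induced by interferon and to restrain Toll-like receptor signalling. Trim5 and its mouse relatives Trim12a and Trim12c belong to the subfamily of the retroviral restriction factor TRIM5. Reads from near-identical copies may be split between genes. Of the 31-base words in the last 500 bases of the transcripts, 64.7% of Trim34b's, 49.9% of Trim5's, 32.9% of Trim12c's, 28.6% of Trim34a's and 21.6% of Trim30d's also occur in another gene. The values of these 5 genes are therefore uncertain, whereas the share was 0.43% for Trim30a and 0% for Trim30b and Trim12a. Outside the block the share was 22.2% for Trim16, 20% for Trim13, 13.6% for Trim59 and 12.5% for Trim21. The values of these genes are uncertain too.

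The promoters of the list are shown because its members were lower in macrophages than in monocytes, a difference that depends on the clustering as described below. Windows run from 250 bases before to 50 after the RefSeq start on GRCm38.p6, 5′ to 3′ on the gene's strand. Capitals mark matches, on either strand, to GAAA followed by 2 bases of any kind and GAAA again, the core of the interferon-stimulated response element. Overlapping matches are run together. Trim30a lies at chr7:104465144-104465443 (minus strand), Trim30d at chr7:104507800-104508099 (minus), Trim34a at chr7:104244207-104244506 (plus), Trim21 at chr7:102565433-102565732 (minus) and Trim30c at chr7:104400729-104401028 (minus).
Trim30a: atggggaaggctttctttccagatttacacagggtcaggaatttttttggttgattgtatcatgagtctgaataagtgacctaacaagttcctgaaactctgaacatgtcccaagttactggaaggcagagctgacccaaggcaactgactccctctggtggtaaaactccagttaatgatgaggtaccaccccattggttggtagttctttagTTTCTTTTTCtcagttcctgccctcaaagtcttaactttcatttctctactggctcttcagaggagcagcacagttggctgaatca
Trim30d: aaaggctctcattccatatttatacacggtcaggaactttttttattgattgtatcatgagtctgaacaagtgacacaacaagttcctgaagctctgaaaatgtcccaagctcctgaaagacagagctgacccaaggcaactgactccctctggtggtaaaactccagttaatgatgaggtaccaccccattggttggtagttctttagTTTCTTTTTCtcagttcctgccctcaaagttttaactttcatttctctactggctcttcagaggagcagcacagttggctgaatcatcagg
Trim34a: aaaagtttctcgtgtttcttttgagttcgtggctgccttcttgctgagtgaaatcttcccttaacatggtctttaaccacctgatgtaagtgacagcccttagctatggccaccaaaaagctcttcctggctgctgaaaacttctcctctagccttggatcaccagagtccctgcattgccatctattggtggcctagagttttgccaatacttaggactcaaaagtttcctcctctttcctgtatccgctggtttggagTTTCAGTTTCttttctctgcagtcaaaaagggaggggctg
Trim21: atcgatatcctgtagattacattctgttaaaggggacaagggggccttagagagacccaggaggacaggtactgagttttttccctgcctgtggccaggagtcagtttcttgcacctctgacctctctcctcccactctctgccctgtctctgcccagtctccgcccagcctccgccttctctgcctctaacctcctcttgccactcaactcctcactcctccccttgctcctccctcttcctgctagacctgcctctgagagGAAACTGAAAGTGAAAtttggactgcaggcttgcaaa
Trim30c: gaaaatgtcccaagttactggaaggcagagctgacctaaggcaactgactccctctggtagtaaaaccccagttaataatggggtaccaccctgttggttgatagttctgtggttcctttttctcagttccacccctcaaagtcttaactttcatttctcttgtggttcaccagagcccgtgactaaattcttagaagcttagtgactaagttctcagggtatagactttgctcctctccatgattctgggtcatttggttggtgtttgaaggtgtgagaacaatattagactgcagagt
The windows of Trim30a, Trim30d and Trim34a hold 1 match each, Trim21 holds 2 overlapping matches and Trim30c holds none. A RefSeq window was found for 52 of the 67 members. The letters occurred in 9 of the 52 (17.3%), against 3.99% of the 27025 genes with a window. Of these 9, 8 belong to the interferon list, in which 11 members have a window: Trim5, Trim12a, Trim12c, Trim21, Trim26, Trim30a, Trim30d and Trim34a. No match was found for Trim30b, Trim30c or Trim34b, and the remaining match was in Trim2. A match describes the letters of the window only.

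Trim30a was the highest member in T cells, monocytes and macrophages. In monocytes it stood at 1363, 1373, 1194 and 1312 CPM, and in all T cells at 767, 692, 695 and 685 CPM. It was highest in neutrophils (1491 ± 200 CPM) and pDC (1348 ± 60.7 CPM) and lowest in fibroblast-like cells (226 ± 37.5 CPM). The neutrophil, pDC and monocyte levels overlapped, so no order can be read among these 3 classes. Trim30d followed with 535, 552, 505 and 527 CPM in monocytes and 217, 185, 190 and 193 CPM in all T cells. Neither gene was restricted to a lineage.

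Trim30b and Trim30c, between Trim12c and Trim30a on the same strand, were less even over the classes. Class means ran from 1.82 to 334 CPM for Trim30b and from 3.87 to 150 CPM for Trim30c. In cDC2 and non-classical monocytes Trim30b stood at 105.5 and 86.6 CPM, and Trim30c at 39.7 and 50.6 CPM. Trim30b measured 127, 146, 118 and 128 CPM in monocytes and 252, 380, 275 and 429 CPM in neutrophils, its highest class. In all T cells it measured 3.96, 3.51, 2.66 and 2.93 CPM, and in NK cells 1.63, 2.13, 1.87 and 1.64 CPM. Every monocyte library lay far above every T or NK library. B cells were the lymphocytes with Trim30b, at 71.7, 47.9, 60.8 and 71.5 CPM. The 8 monocyte markers summed to 13183 to 14963 CPM in monocytes, 1422 to 1694 CPM in all T cells and 1620 to 2792 CPM in B cells, and the part of monocyte RNA in the lymphocyte levels was not tested. Trim30c stood at 155, 159, 127 and 159 CPM in monocytes and overlapped with neutrophils (135 ± 46.0 CPM). In macrophages it was 17.8, 18.3, 16.3 and 23.7 CPM, below every monocyte library. Within T cells Trim30c was higher in the CD4 conventional class, at 35.0, 36.6, 29.0 and 18.4 CPM, than in CD8 T cells, at 6.50, 9.85, 10.9 and 7.25 CPM, with no overlap.

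**Figure D2:**
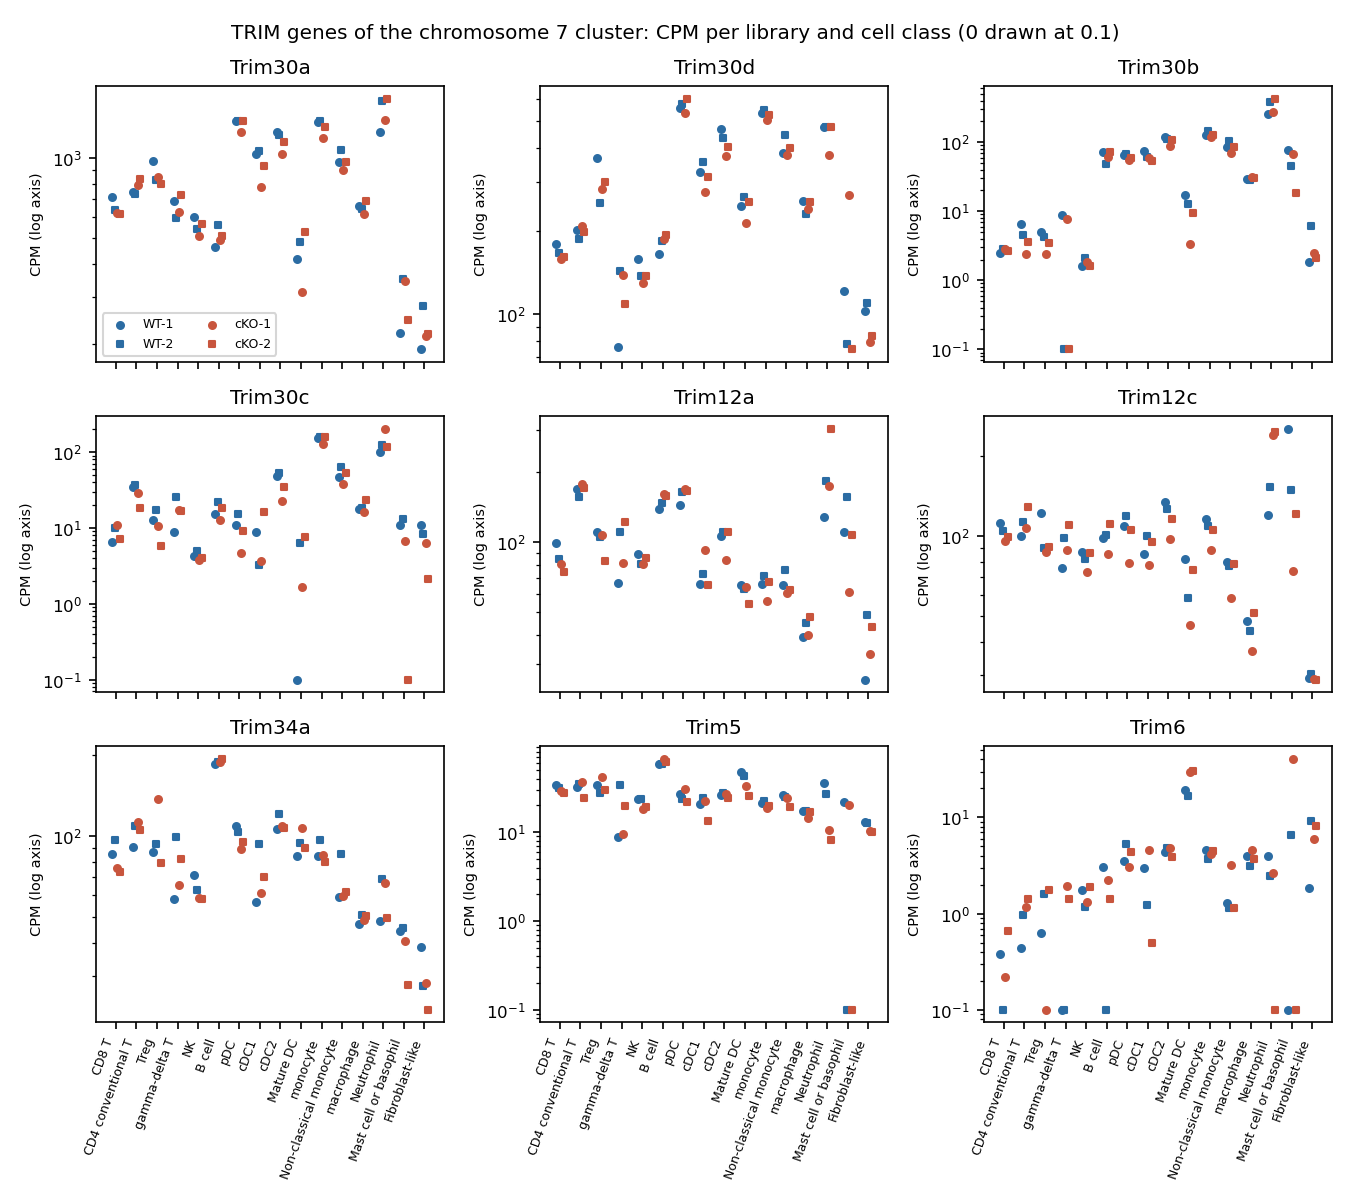
CPM per library (points, log axis, 0 drawn at 0.1) of 9 TRIM genes of the chromosome 7 block in the 16 cell classes, with WT in blue and cKO in red. Trim30b lies between 118 and 146 CPM in monocytes and under 4 CPM in NK cells, while Trim34a peaks in B cells at 185 to 194 CPM.

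Other members of the block leaned to other cells. Trim34a was highest in B cells, at 185, 189, 189 and 194 CPM, with no overlap with cDC2, the next class (111 CPM on average). Trim5 was also highest there, at 58.0, 59.1, 66.7 and 61.7 CPM. Trim12a was higher in CD4 conventional T cells, at 169, 156, 177 and 170 CPM, than in CD8 T cells, at 98.6, 84.6, 80.6 and 74.0 CPM. Trim6, a gene of this block that is not on the interferon list, led in mature dendritic cells at 19.1, 16.6, 29.7 and 30.1 CPM, 7.57 times its mean over the other classes. It was near the floor in T cells, at 0.31 CPM in CD8 T cells.

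Trim14, Trim21 and Trim26 lie outside the block. TRIM14 acts as an adaptor at the mitochondrial protein MAVS, and TRIM21 is the cytosolic receptor for antibody Fc. Trim14 stood at 81.4, 85.6, 75.0 and 87.0 CPM in monocytes and was highest in Treg (93.1 CPM on average). Trim21 was 32.0, 31.6, 28.2 and 27.9 CPM in monocytes, 34.5 ± 6.07 CPM in CD4 conventional T cells and 17.9 ± 2.81 CPM in CD8 T cells. Trim26 was the most even of them, with class means between 38.8 CPM in macrophages and 85.6 CPM in B cells.

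Many interferon members were higher in the monocyte cluster with the highest mean interferon signature, but not all of them. The monocytes formed 3 clusters, ordered here by the summed level of 15 measured interferon-stimulated genes that are no members, such as Ifit1, Isg15 and Mx1. Cluster 0 (4047 cells) had a sum of 13792, 14652, 12910 and 14287 CPM. Cluster 6 (1967 cells) had 12827, 14771, 10508 and 11759 CPM, above cluster 0 in WT-2 and below it in the other 3 libraries. Cluster 1 (3668 cells) was far lower in every library, with 3696, 3698, 3043 and 3668 CPM. All members were left out of the genes used for clustering, but clusters come from the same cells, so these values are a description with no test. At a finer clustering (Leiden resolution 2), 64.7% of the cells of cluster 0 were named macrophages, against 0.627% of cluster 1 and 1.07% of cluster 6. Cluster 0 thus differed from the others in macrophage-like cells as well as in the interferon list, and these cannot be told apart here. Cluster 0 was set against the other monocyte clusters by a rule on the highest sum. Of 39 members with at least 50 UMIs, 20 were higher in cluster 0 in all 4 libraries, where 29.8% of 13149 genes were, and 4 were lower (28.5% of genes). At least 2-fold higher in all 4 libraries were 2 members, Trim6 and Trim47, against 3.18% of genes. Trim47 was also higher in the macrophage class than in monocytes (log2 fold change 1.64 ± 0.12).

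The ratios were graded by gene. Trim6 stood at 7.24 ± 1.16 CPM in cluster 0 and 1.98 ± 0.34 CPM in the others, a ratio of 3.65. Trim34a stood at 121 ± 6.50 against 60.5 ± 8.13 CPM, and Trim14 at 114 ± 5.32 against 58.8 ± 5.05 CPM. Trim30d was higher by less, at 663 ± 17.8 against 430 ± 17.9 CPM. The ratio was 1.28 for Trim30a, 1.16 for Trim12a, 1.03 for Trim12c, 1.01 for Trim5 and 0.945 for Trim30c. Trim30c was highest in cluster 6, at 220, 276, 150 and 200 CPM, above its 145 CPM on average in cluster 0 in every library. The members lower in cluster 0 in all 4 libraries were Trim24 (ratio 0.886), Trim11 (0.828), Trim36 (0.809) and Trim16 (0.494). When clusters 0 and 6 together were set against cluster 1, a split chosen after seeing the data, 14 members were higher (21.0% of genes) and 9 lower (40.4%), and the 2 members that were at least 2-fold higher were Trim21 and Trim6 (3.67% of genes).

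**Figure D3:**
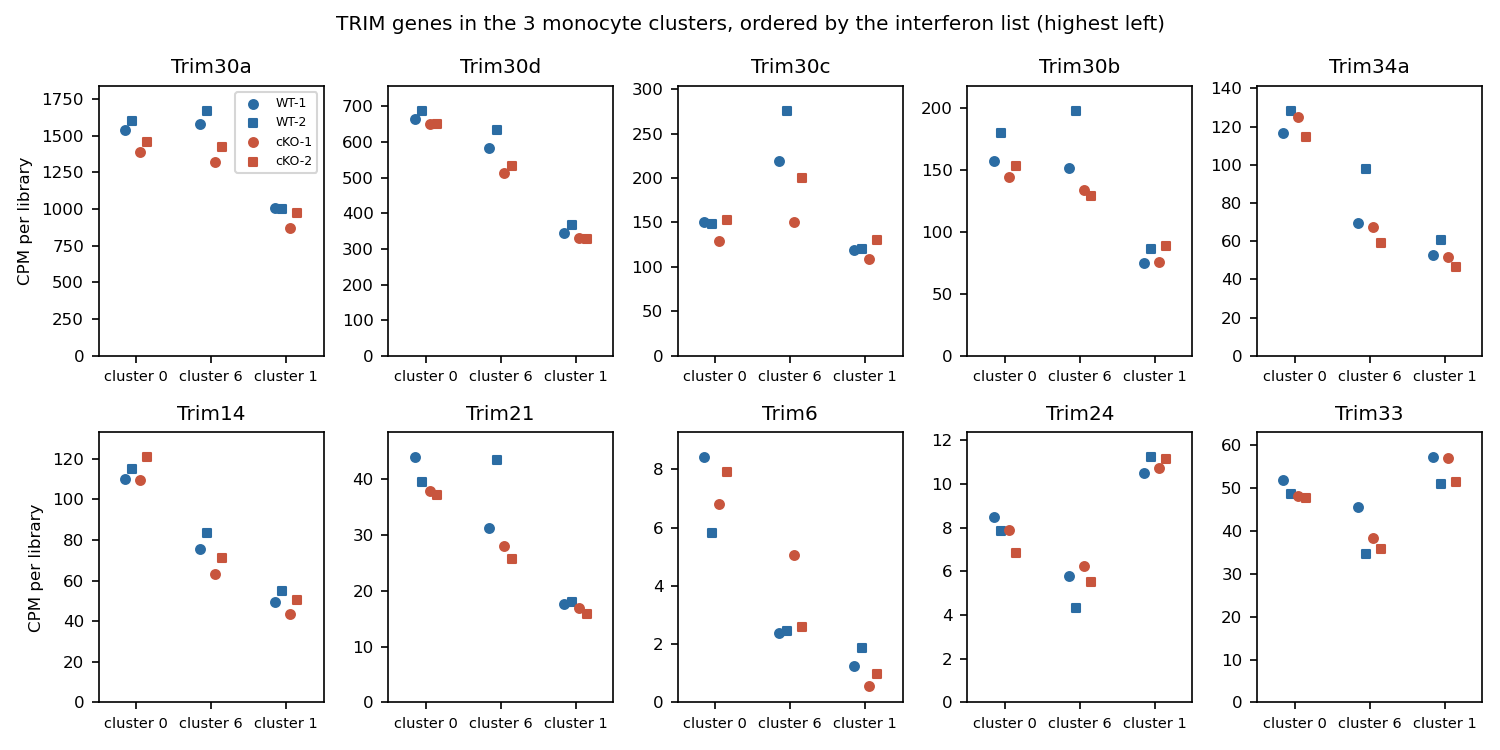
CPM per library of 10 TRIM genes in the 3 monocyte clusters, ordered from left to right by the mean summed level of the interferon list, with WT in blue and cKO in red. Trim34a and Trim14 are highest in cluster 0 and lowest in cluster 1, Trim30c is highest in cluster 6 on average and Trim24 is highest in cluster 1.

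The chromatin cofactors had their own order of classes. TRIM28 (KAP1) is a corepressor that silences retroelements with zinc finger proteins, TRIM24 is a cofactor of nuclear receptors and TRIM33 acts in the SMAD pathway. Trim24 stood at 62.2, 52.4, 62.4 and 51.7 CPM in all T cells, at 8.34 ± 0.433 CPM in monocytes and at 129 ± 13 CPM in pDC, its highest class. Trim28 stood at 60.7, 64.0, 60.6 and 66.8 CPM in all T cells and at 22.4 CPM in monocytes. Trim33 stood at 93.3, 90.9, 84.1 and 76.0 CPM in all T cells and at 48.4 CPM in monocytes. In every library T cells lay above monocytes for these 3 genes. Fibroblast-like cells were highest for Trim28 (134 ± 18.2 CPM) and Trim33 (163 ± 19.6 CPM). Trim66, the last of the list, had 71 UMIs and reached 1 CPM only in fibroblast-like cells.

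Several members outside these lists, or on the lists for signalling, growth and neurons, led in 1 class. For each class the member with the highest ratio of its level there to its mean elsewhere was taken, among members with at least 50 UMIs in the class. Trim7, a ligase first described through glycogenin, stood at 176, 148, 162 and 169 CPM in B cells, 21.0 times its mean elsewhere. Mature dendritic cells followed with 73.6 ± 6.86 CPM and type 1 conventional dendritic cells (cDC1) with 14.2 CPM, and none of these 3 classes overlapped with the next. Trim7 lies at chr11:48826140-48852209. Trim47 stood at 73.5, 65.9, 50.3 and 67.8 CPM in fibroblast-like cells, 19.8 times its mean elsewhere, with macrophages next at 11.5 CPM.

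The remaining ratios were smaller. Trim36, a microtubule-associated member, stood at 83.7, 61.3, 91.6 and 68.9 CPM in pDC (ratio 4.99) and 30.3 CPM in cDC2, the next class. Trim35 stood at 150, 127, 109 and 133 CPM in mature dendritic cells and 116, 111, 130 and 92.3 CPM in cDC1, which overlapped. Trim16 led in cDC2 at 10.4 ± 0.497 CPM (ratio 3.74), close to its 8.43 CPM in monocytes. Trim69 led in macrophages at 29.3 ± 13.4 CPM (ratio 3.39), with a wide spread described below. Trim13 led in NK cells at 14.3 ± 1.62 CPM (ratio 3.11) and overlapped with mast cells or basophils. Trim30b led in neutrophils (ratio 8.05), Trim30c in monocytes (6.10) and non-classical monocytes (1.62), Trim12c in mast cells or basophils (1.59) and Trim68 in CD8 T cells (2.18). These last 2 were not highest there: Trim12c was higher in neutrophils (190 against 150 CPM), and its ratio in mast cells or basophils fell to 0.861 in 1 library, while Trim68 stood at 5.05 CPM in Treg and 4.97 CPM in CD8 T cells. In gamma-delta T cells the leading ratio was 1.36, for Trim26, so no member with enough UMIs stood apart there.

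Trim59 was the member with the highest ratio in the CD4 conventional T and Treg classes. TRIM59 is a membrane-anchored member linked to innate signalling and to cell proliferation. It stood at 92.2, 124, 85.8 and 78.6 CPM in CD4 conventional T cells and at 112, 111, 92.0 and 74.5 CPM in Treg, and these overlapped. Monocytes had 10.5, 9.20, 9.91 and 9.50 CPM. Within T cells its level moved with that of Mki67, the gene of the proliferation marker Ki-67. Cluster 16, counted in the CD4 conventional class, had Trim59 at 177 ± 21.3 CPM and Mki67 at 1054 CPM, and cluster 3, of 944 cells, had Trim59 at 52.9 ± 14.2 CPM and Mki67 at 49.5 CPM. The CD8 cluster 14, of 261 cells, had Trim59 at 120 ± 21.3 CPM and Mki67 at 836 CPM, against Trim59 at 64.2 and 65.0 CPM in the other CD8 clusters. Most Treg lay in cluster 4, of 760 cells, with Trim59 at 91.2 CPM and Mki67 at only 64.2 CPM, so a high Trim59 level was also found where Mki67 was low. Trim28 followed the same split, with 97.6 CPM in cluster 16 and 44.3 CPM in cluster 3, as did Trim37 with 27.7 and 14.3 CPM. The CD4 conventional mean of 95.3 CPM thus rested on cluster 16: without it Trim59 stood at 58.8, 70.3, 42.5 and 40.2 CPM, and at a finer clustering (Leiden resolution 2), where most of these cells were named only as T cells, the class mean was 58.8 CPM.

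Members reported to act on RIG-I, MAVS, cGAS, STING or Toll-like receptors numbered 18, of which 12 reached 1 CPM in all 16 classes and 5 in none. Trim44, which is known to stabilise MAVS, was highest in pDC at 117, 97.3, 158 and 114 CPM and stood at 64.4, 60.8, 62.0 and 59.5 CPM in all T cells. Trim56, linked to cGAS and STING, stood at 37.7, 36.1, 45.6 and 42.8 CPM in all T cells and 42.6, 42.5, 33.8 and 41.9 CPM in monocytes, so its level was much the same in both lineages. Trim11 was highest in pDC (43.9 ± 4.67 CPM) and B cells (43.9 ± 6.45 CPM). Trim27, Trim8 and Trim23 had class means from 15.7 to 55.8 CPM, 15.9 to 49.9 CPM and 11.7 to 34.1 CPM.

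Differences between classes were tested on the 4 libraries with library as a term. Between all T cells and the myeloid cells (monocytes with macrophages), 31 of 41 members tested passed an adjusted p of 0.05 in edgeR's quasi-likelihood test, 16 higher in T cells and 15 lower. Of 15235 genes 73.9% passed, 37% higher and 36.9% lower, so the members' share is near the background. The highest in T cells were Trim46 (log2 fold change 3.07 ± 0.27, from 4.71 CPM), Trim59 (2.37 ± 0.09) and Trim68 (2.03 ± 0.20). The lowest were Trim30b (-5.17 ± 0.09), Trim30c (-3.19 ± 0.15) and Trim6 (-3.09 ± 0.26). These 6 adjusted p-values from edgeR ran from 8.22e-13 to 2.26e-06. All 3 chromatin cofactors tested were higher in T cells, Trim24 by 2.02 ± 0.08, Trim28 by 0.73 ± 0.07 and Trim33 by 0.45 ± 0.06. The scaling matters in this contrast: with library size alone the median of all genes moved by 0.29, and 21 members were higher and 11 lower (48.8% and 28.1% of genes). On the interferon list 2 of 11 were higher in T cells (Trim5 and Trim12a) and 6 lower (Trim14, Trim21 and the 4 Trim30 genes), with a median of -0.36 against 0.01 over all genes. With library size alone these counts became 5 and 4, since Trim12c, Trim26 and Trim34a were then called higher and Trim14 and Trim21 were not called. The 4 Trim30 genes were lower in T cells under both scalings. All 15 interferon-stimulated genes of the comparator list were lower in T cells as well, with a median of -1.97.

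Between macrophages and monocytes, 29 of 40 members passed, 13 higher in macrophages and 16 lower, where 64% of 13863 genes passed (33.5% higher and 30.5% lower). All 11 interferon-list members tested were lower in macrophages, with a median log2 fold change of -1.23 against 0.03 over all genes. With library size alone the median of all genes moved by 0.22 and all 11 were again called lower. These differences depend on where the interferon-high monocytes are placed. At Leiden resolution 2, 64.7% of the cells of monocyte cluster 0 were named macrophages, and the macrophage class grew from 6336 to 9070 cells while the monocyte class went from 9682 to 6510. With those classes 9 of the 11 were lower in macrophages, Trim14 was higher (0.17 ± 0.04, edgeR adjusted p 0.00785) and Trim34a was not called, with a median of -0.38 against 0.04 over all genes, and the comparator list had a median of -0.41 with 13 of 15 genes lower. Trim30c (-1.57 ± 0.08) and Trim30b (-0.85 ± 0.06) were still called lower, at smaller sizes. In the classes used here the members ranged from Trim30c (-3.20 ± 0.06, edgeR adjusted p 2.14e-11) and Trim30b (-2.33 ± 0.07) to Trim5 (-0.54 ± 0.06). All 15 comparator genes were lower as well in these classes, with a median of -1.87. The members higher in macrophages were led by Trim47 (1.64 ± 0.12, edgeR adjusted p 4.97e-07), Trim37 (1.58 ± 0.12) and Trim32. Trim37, a ligase of centrosome and peroxisome control, stood at 12.7, 13.9, 14.8 and 11.5 CPM in macrophages and 3.84, 3.99, 3.24 and 3.91 CPM in monocytes.

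Between CD8 and CD4 conventional T cells, 11 of 36 members passed, 2 higher in CD8 T cells and 9 lower, where 36.1% of 11263 genes passed (17.8% higher and 18.3% lower). The 2 higher were Trim46 (1.38 ± 0.38, edgeR adjusted p 0.0078) and Trim13 (1.00 ± 0.28, edgeR adjusted p 0.00844). On the interferon list 7 of 11 members were lower in CD8 T cells and none was higher, with a median of -0.28 against 0.01 over all genes. Among them Trim30c (-1.76 ± 0.18, edgeR adjusted p 7.43e-07), Trim12a (-0.94 ± 0.09) and Trim21 (-0.88) differed most. Of the comparator list, 14 of 15 genes were lower in CD8 T cells, with a median of -0.70. Without cluster 16, 15 members passed, 4 higher and 11 lower, 8 of them lower on the interferon list. Trim13 (1.61 ± 0.34) was then still higher, while Trim46 was not called (0.92 ± 0.44, edgeR adjusted p 0.103). Trim59 changed side: it was -0.24 ± 0.09 (edgeR adjusted p 0.0544) with cluster 16 and 0.57 ± 0.12 (edgeR adjusted p 0.00121), higher in CD8 T cells, without it.

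No member differed between cKO and WT at an adjusted p of 0.05 in any of the 17 classes compared, by edgeR or by DESeq2. In all T cells 38 members were tested, 19 with a positive and 19 with a negative log2 fold change. Of these 38, 5 had an unadjusted edgeR p under 0.05, as had 8.45% of all genes tested there. Over the 17 classes the number of members with such a p ranged from 0 to 6. It was 0 in gamma-delta T cells, monocytes and mast cells or basophils, where 6.69%, 4.25% and 7.67% of genes had such a p. It was 6, of 38 members tested, in cDC2, where 6.38% of genes had it. At the adjusted p of 0.05 the background was low. In all T cells 6 of 12215 genes passed (0.0491%), and the share was 0.098% in CD8 T, 0.301% in CD4 conventional T and 0.0535% in Treg. It was 0.0156% in macrophages, 0.297% in B cells, 0.446% in pDC, 0.0173% in cDC2 and 0% in the other 9 classes, monocytes and NK cells among them. These counts of all genes are not stable: leaving out 1 library gave 59 to 259 genes in all T cells, 32 to 233 in macrophages, 3 to 320 in NK cells and 138 to 410 in B cells, in fits where 1 genotype is a single library assumed to vary like the other. The median member stood at 0.00 in all T cells, as against 0.01 for all genes. The smallest adjusted p of any member was 0.193 (edgeR), for Trim69 in CD8 T cells. The labels do not state separate animals for the libraries, and the p-values then reflect the spread of these libraries alone, which may be technical; an exact permutation test of 2 against 2 could not go below 0.333. On simulated counts at this size, the same fit recovered 66% of genes changed by 1 on the log2 scale and 32% of those changed by 0.5 in all T cells. It also called 6 genes that had not been changed. Every simulated gene had the spread of the fitted trend, so these rates need not hold for members that vary more between libraries, such as Trim69.

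**Figure D4:**
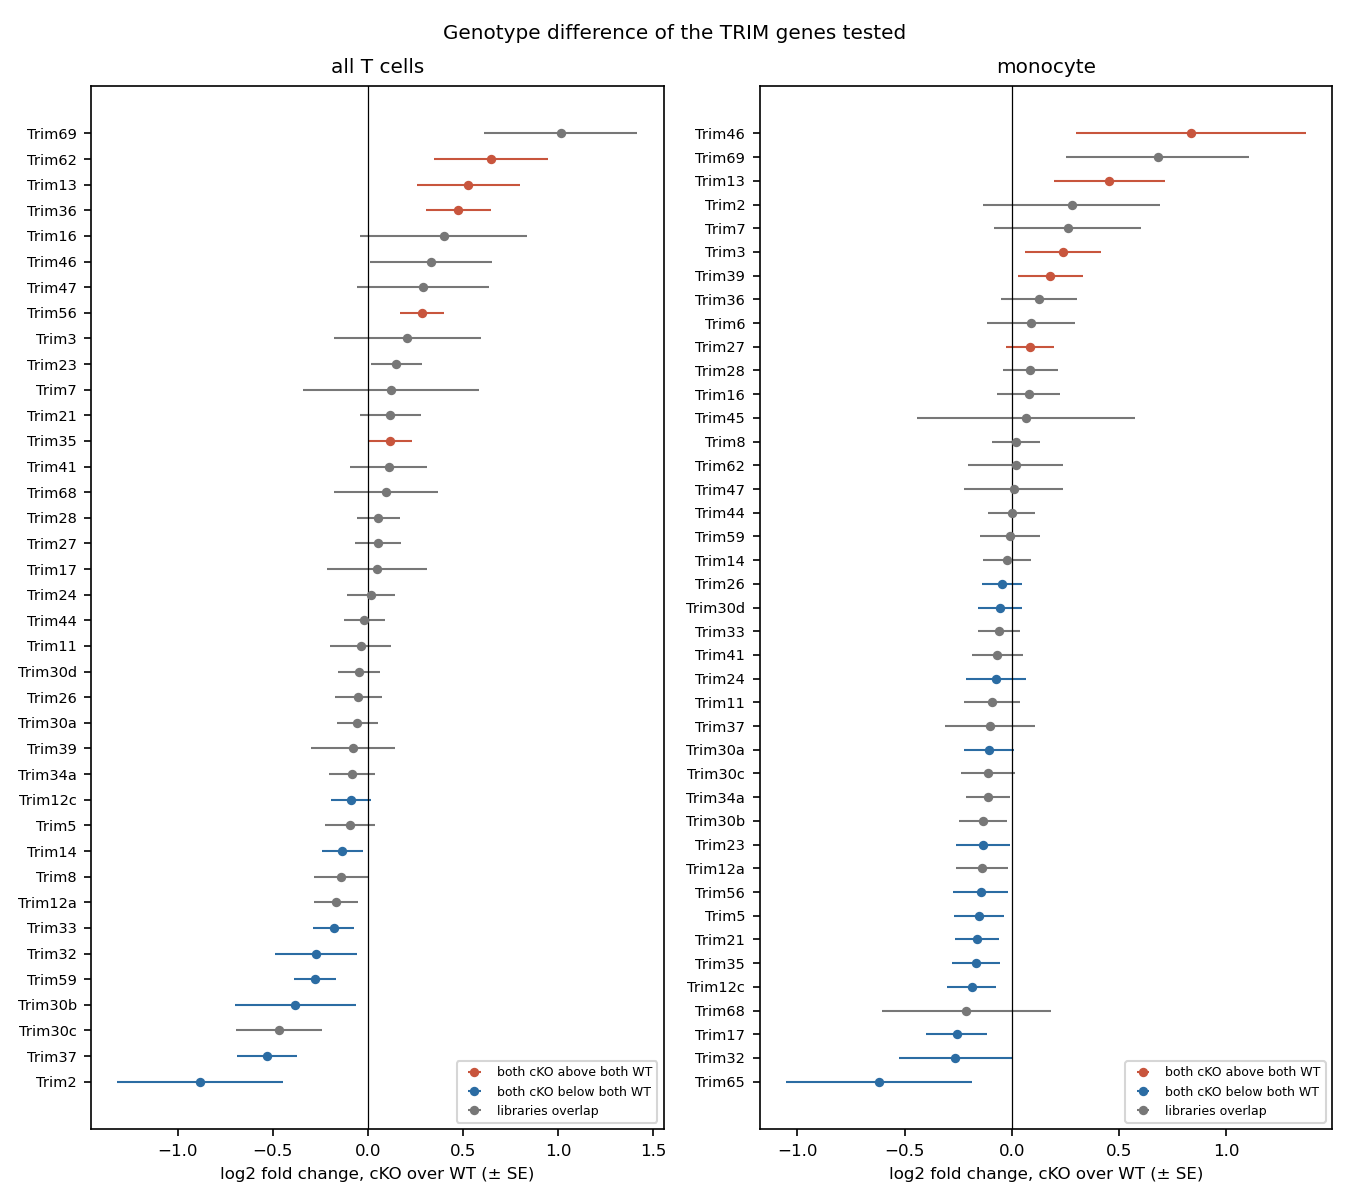
Log2 fold change of cKO over WT (points) with its standard error (bars) for the 38 TRIM genes tested in all T cells and the 41 in monocytes, from edgeR. Colours mark genes whose 2 cKO libraries both lie above or below both WT libraries, and no gene passed an adjusted p of 0.05 in either panel.

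Counted by libraries that do not overlap, 5 members in all T cells were higher in both cKO libraries and 8 lower, where 16% and 22.3% of all genes were. The 5 higher were Trim13, Trim35, Trim36, Trim56 and Trim62, and the 8 lower were Trim12c, Trim14, Trim2, Trim30b, Trim32, Trim33, Trim37 and Trim59. In CD8 T cells 6 of 35 were higher and 10 lower (16% and 19.7% of genes). In monocytes 5 of 41 were higher and 13 lower (13.2% and 18.4%), and in macrophages 4 of 39 were higher and 5 lower (16.3% and 16.5%). Of the other classes, B cells had 8 of 26 higher (20.1% of genes) and 2 lower (21.6%), with Trim12a, Trim24, Trim26, Trim27, Trim30d, Trim33, Trim34a and Trim5 the higher ones. The members lower in both cKO libraries numbered 8 of 29 in Treg (18.4% of genes), 10 of 31 in pDC (21.4%), 8 of 27 in mature dendritic cells (15.5%) and 11 of 33 in non-classical monocytes (21%). Over the 17 classes the members' share exceeded that of all genes in 5 classes for those higher and in 10 for those lower, and these shares were not tested. In all T cells Trim30a and Trim30d, the members with the most UMIs, differed by less than their error. Trim30a had a log2 fold change of -0.06 ± 0.11 there and Trim30d of -0.05 ± 0.11. By class, both genes were lower in both cKO libraries in CD8 T cells, monocytes, cDC1 (15.7% of genes) and cDC2 (18.3%). Trim30a was higher in both in CD4 conventional T cells (17.8% of genes).

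The interferon list had negative log2 fold changes in T cells as a whole, with 1 of 11 members positive in all T cells (median -0.09) and 2 of 11 in CD8 T cells (median -0.11), none of them past the test. The comparator list had 6 of 15 positive in all T cells (median -0.05) and 3 of 15 in CD8 T cells (median -0.09). Medians over all genes lay between -0.01 and 0.01 in every class. In CD4 conventional T cells 8 of 10 were positive (median 0.13), and the comparator list was too, with 14 of 15 genes positive and a median of 0.30. The comparator sum there was 2908, 2989, 3361 and 3689 CPM, higher in both cKO libraries. Of the member list, Trim12a, Trim21 and Trim30a were higher in both cKO libraries of this class and Trim30c was lower. Without its cluster led by cycling genes, Trim30a stood at 721, 859, 819 and 898 CPM and the genotypes overlapped. They also overlapped for Trim12a, at 158, 178, 174 and 188 CPM. Trim21 was still higher in both cKO libraries, at 32.2, 31.5, 40.8 and 39.2 CPM, and Trim30c still lower. Cluster 16 held 61, 73, 27 and 22 of the 324, 411, 207 and 185 cells of this class. The medians of both lists and the comparator sum without this cluster are not given. Its part in the higher comparator sum of the cKO libraries was not tested. In monocytes none of 11 members was positive (median -0.11), while 6 of 15 comparator genes were. None of 11 was positive in cDC2 (median -0.17) or in non-classical monocytes (median -0.18) either, with 3 and 7 of 15 comparator genes positive. In B cells 7 of 10 members were positive (median 0.12) and 3 of 15 comparator genes (median -0.22). Over the 17 classes the member list had a negative median in 12 and a positive one in 5, and no member passed the test in any. The comparator sum in monocytes was 10071, 10312, 8888 and 10575 CPM, so cKO-1 was the low library and the genotypes overlapped.

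Trim69 was the member with the largest positive log2 fold changes among those with the smallest p, and it varied by library. It encodes a protein known to bind microtubules and lies at chr2:122160700-122179027, between B2m and Terb2, and none of its 3′ words occur in another gene. In CD8 T cells it stood at 6.69, 2.85, 8.94 and 16.3 CPM, a log2 fold change of 1.49 ± 0.37 (p 0.00119, edgeR adjusted p 0.193). In macrophages it stood at 26.9, 11.6, 41.7 and 37.2 CPM, a log2 fold change of 1.04 ± 0.29 (edgeR adjusted p 0.898). Both cKO libraries were above both WT libraries in these classes and in cDC2, at 7.48, 7.37, 14.7 and 11.8 CPM. WT-2 was the lowest library in CD8 T cells, Treg, monocytes and macrophages. In monocytes the other 3 libraries lay together, at 21.8, 6.25, 22.7 and 21.6 CPM. In all T cells the genotypes overlapped, at 10.4, 3.51, 8.79 and 17.6 CPM (1.01 ± 0.40, edgeR adjusted p 0.485).

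Elsewhere Trim69 did not separate the genotypes. In CD4 conventional T cells it stood at 10.9, 3.56, 2.37 and 19.1 CPM, and in Treg at 22.2, 5.88, 17.1 and 20.9 CPM. NK cells had 12.7, 3.58, 5.43 and 3.27 CPM, with WT-1 the high library. Non-classical monocytes had 8.66, 6.43, 38.4 and 5.72 CPM, where the value of cKO-1 alone gave a log2 fold change of 1.60 ± 0.56. Leaving out 1 library at a time moved its log2 fold change from 0.40 (without cKO-2 or without WT-2) to 1.93 (without WT-1) in all T cells, and from 0.57 (without WT-2) to 1.76 (without WT-1) in macrophages. It was then called in all T cells without WT-1 or cKO-1 and in macrophages without WT-1, WT-2 or cKO-2. In each such fit 1 genotype is a single library and the spread comes from the 2 libraries of the other, so these calls are not read as a difference. Macrophage markers, which mark the class with the most Trim69, summed to 782, 693, 999 and 905 CPM in CD8 T cells and to 7715 to 9318 CPM in macrophages. They were higher in both cKO libraries of the CD8 T class, and their part in the Trim69 difference was not tested. The genotype effect of Trim69 did not differ detectably between T and myeloid cells (0.05 ± 0.31 on the log2 scale, edgeR adjusted p 0.986).

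Trim37 was the member with the smallest p in all T cells and in the comparison of genotype effects. It stood at 21.6, 22.7, 16.7 and 13.7 CPM in all T cells (-0.53 ± 0.16, p 0.00515, edgeR adjusted p 0.277) and at 22.8, 25.1, 15.9 and 16.8 CPM in CD8 T cells (-0.53 ± 0.18, edgeR adjusted p 0.417). Both cKO libraries were below both WT libraries in each. In NK cells, at 23.5, 20.9, 19.9 and 22.8 CPM, and in macrophages the genotypes overlapped. Trim37 was also lower in both cKO libraries in CD4 conventional T cells, Treg and pDC, and higher in both in cDC1 and cDC2. Without cluster 16 its genotypes overlapped in CD4 conventional T cells, at 17.8, 12.2, 20.4 and 7.04 CPM. The genotype effect in T cells less that in myeloid cells was -0.73 ± 0.18 (p 0.00148, edgeR adjusted p 0.162), and 36 of 15235 genes passed this test (0.236%) with no member among them. The cycling markers, 5 genes, summed to 1257, 1401, 1154 and 1182 CPM in all T cells, lower in both cKO libraries. In CD8 T cells the cycling sum was 1152, 1272, 1232 and 1185 CPM and overlapped. The part of cycling cells in the Trim37 values was not tested.

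**Figure D5:**
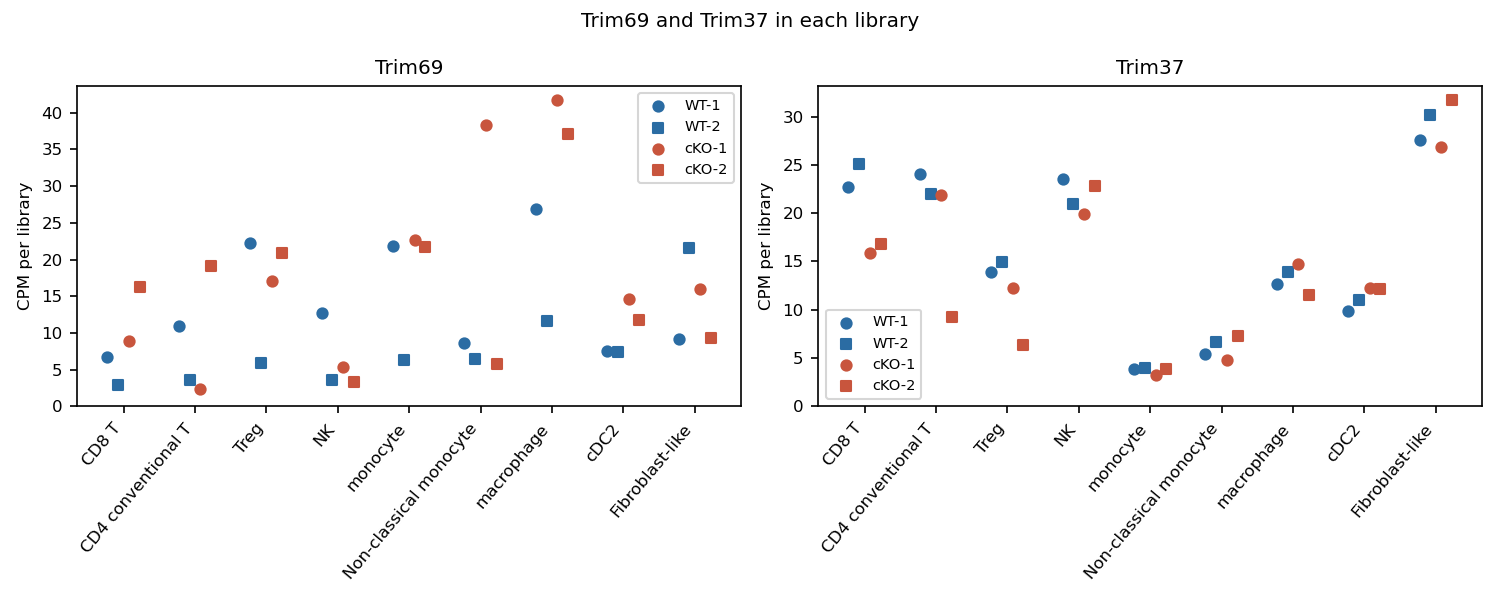
CPM per library of Trim69 (left) and Trim37 (right) in 9 cell classes, with WT in blue and cKO in red, circles for the first and squares for the second library of a genotype. Trim69 in WT-2 is the lowest point in CD8 T cells, Treg, monocytes and macrophages, and Trim37 is lower in both cKO libraries in CD8 T cells.

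Trim59 and Trim56 were the other members with an unadjusted p under 0.05 in both all T cells and the comparison of effects. Trim59 stood at 88.8, 99.8, 77.5 and 75.9 CPM in all T cells (-0.28 ± 0.11, edgeR adjusted p 0.49), at 54.7, 51.2, 41.6 and 47.0 CPM in NK cells and at about the same level in every monocyte library. Both cKO libraries were lower in the CD8 T, CD4 conventional T, Treg and NK classes, and also in B cells and non-classical monocytes. Both were higher in cDC1 and fibroblast-like cells. In CD4 conventional T cells (-0.39 ± 0.18, edgeR adjusted p 0.509) the cycling sum was 1863, 1925, 1466 and 1525 CPM, also lower in both cKO libraries. In Treg (-0.41 ± 0.18, edgeR adjusted p 0.874) it was 722, 1022, 431 and 886 CPM and overlapped. Without cluster 16 the log2 fold change of Trim59 in CD4 conventional T cells was -0.64 (edgeR adjusted p 0.398). In cDC1 the direction was the other way, at 21.3, 31, 39.8 and 52.3 CPM, and the cycling sum there was 475, 735, 1101 and 760 CPM, also higher in both cKO libraries. The part of cycling cells in these differences was not tested. Trim56 was higher in both cKO libraries in all T cells (0.28 ± 0.12, edgeR adjusted p 0.507) and lower in both in monocytes by a small margin. The effect in T cells less that in myeloid cells was 0.58 ± 0.17 (edgeR adjusted p 0.253). Trim56 was also higher in both cKO libraries in cDC1, non-classical monocytes and neutrophils, and lower in both in cDC2 and mature dendritic cells.

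Trim30c was lower in both cKO libraries in several classes. In cDC2 it stood at 48.7, 53, 22.4 and 34.9 CPM (-0.80 ± 0.19, p 0.0013, edgeR adjusted p 0.384). In Treg it stood at 12.7, 17.1, 10.6 and 5.82 CPM (-0.90 ± 0.43), and in CD4 conventional T cells the log2 fold change was -0.56 ± 0.25. In pDC it stood at 11.1, 15.4, 4.62 and 9.06 CPM. In all T cells, CD8 T cells, monocytes and macrophages its genotypes overlapped. Its neighbour Trim30b stood at 117, 109.8, 88.2 and 106.8 CPM in cDC2, also lower in both cKO libraries, and at 29.2, 28.2, 31.4 and 30.6 CPM in macrophages, higher in both.

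The other members with the smallest p in a class were also short of the threshold. Trim36 was higher in both cKO libraries in all T cells, at 18.3, 13.9, 19.9 and 23.6 CPM (0.47 ± 0.17, edgeR adjusted p 0.417), and in CD8 T cells (0.57 ± 0.20). Trim62 stood at 2.18, 3.89, 7.69 and 8.50 CPM in CD4 conventional T cells (1.36 ± 0.51, edgeR adjusted p 0.369), and without cluster 16 its log2 fold change was 2.28 (edgeR adjusted p 0.227). Trim33 stood at 117, 88.2, 79.8 and 74.5 CPM in Treg (-0.39 ± 0.19). None of these differences passed the test, and the spread within a genotype was wide for the genes of low count. In NK cells Trim5 stood at 23.4, 23.9, 18.3 and 19.2 CPM (-0.30 ± 0.12, edgeR adjusted p 0.847), and Trim39 stood at 11.2, 9.08, 12.8 and 11.6 CPM. In macrophages Trim2 stood at 1.54, 0.704, 0.209 and 0.118 CPM, from 34 UMIs in all (-2.69 ± 0.69, edgeR adjusted p 0.821), and Trim32 at 5.52, 8.60, 5.27 and 4.20 CPM. Both genes were lower in both cKO libraries. In monocytes Trim17 stood at 11.8, 10.3, 9.71 and 8.58 CPM, Trim13 at 2.06, 2.43, 3.58 and 2.55 CPM and Trim12c at 116, 109, 89.0 and 106 CPM, each with an edgeR adjusted p of 1.0.

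The 6 relatives of the TRIM family that carry other symbols were read beside the members. Mefv, which encodes the inflammasome sensor pyrin, stood at 84.8 ± 3.56 CPM in monocytes and 1.71 ± 0.291 CPM in all T cells. Bspry showed the opposite, with 25.6 ± 1.40 CPM in NK cells, 19.0 CPM in all T cells and 0.163 CPM in monocytes (5.70 ± 0.19 for T over myeloid cells, edgeR adjusted p 1.18e-10). Mid1, a microtubule-associated ligase, was higher in myeloid than in T cells (-0.81 for T over myeloid cells) and highest in cDC2 at 56.2 CPM. Pml, the scaffold of nuclear bodies, was highest in pDC at 201 ± 34.4 CPM. Rnf135, also called Riplet and a ligase of RIG-I like TRIM25, stood at 16 CPM in monocytes and 7.41 CPM in all T cells, and its ratio between monocyte cluster 0 and the others was 2.85. Mid2 stood at 4.51, 4.43, 2.13 and 2.06 CPM in all T cells, lower in both cKO libraries (-1.06 ± 0.32, p 0.00611, edgeR adjusted p 0.298). None of the 6 passed the genotype test in any class.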

How the data were processed

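The authors deposited 1 matrix of raw UMI counts by gene and barcode for each library, made with a Chromium 3′ v3 kit per the labels' protocols. The submitters' processing notes name Cell Ranger, STAR and mm10; versions and annotation were not stated in the sources used here. Barcodes are 20 bases long, longer than that kit's, so the chemistry is not settled. Cells were kept from 300 genes and 500 UMIs upward and up to 15% mitochondrial UMIs. Scrublet's automatic threshold marked 0 cells, so cells scoring above 0.2 and clusters with a median above 0.1 (2323 cells) were set apart as mixed droplets. Cells were clustered with scanpy 1.11.5 (2000 variable genes, 30 components, 15 neighbours, Leiden resolution 1), leaving out all members, Trim25, Vsir and Cd4. Class sums of raw counts were made for each library. The depth of a class sum sets the precision: all T cells held 7505308 to 11964370 UMIs per library and monocytes 20693379 to 32546603. Sums were tested with edgeR 4.0.16 under R 4.3.3 (TMM, filterByExpr, quasi-likelihood, Benjamini-Hochberg over all genes tested, threshold 0.05, two-sided); DESeq2 1.42.0 was an alternative. Class contrasts carried library as a term. The fits were tested on simulated counts. Replicate numbers did not pair libraries. No library repeated another: chi-square per degree of freedom was 69.2 within WT and 53.5 within cKO.

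Members and lists were chosen with earlier results of these data known. Named with values were Trim25, the 10 highest members in T cells, monocytes and macrophages, the 3 smallest p-values in each of 7 classes, the member leading each class, and the interferon, chromatin and other-symbol lists. Trim30c in cDC2, Trim59 in cDC1, Trim55 and the further signalling genes were named after their values were seen. A list of the closest relatives of Trim25 by protein identity was planned and not used here. All 67 members matched GENCODE vM21 by gene ID (32235 of 32285 features did). Genotype contrasts in 9 further classes, the crossed block, the class contrasts at resolution 2, the fits without T cluster 16 and the second split of monocyte clusters were added after the data were seen.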

Additional observations from a re-analysis of the deposited data

How the results depend on the processing

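No member passed by genotype in any class under DESeq2, library size alone, mixed droplets kept or Leiden resolution 2. With all genes of at least 1 count tested, 1 member passed in all T cells, CD8 T, macrophages, monocytes and non-classical monocytes (Trim69) and 1 in mast cells or basophils (Trim59); 2 passed in cDC2 (Trim30c and Trim69) and 2 in the comparison of genotype effects (Trim37, -0.73, and Trim56, 0.58). With replicate number as a block, 1 member passed in cDC2 (Trim30c) and 0 in the other 16 classes, and the all-gene count became 3 in all T cells, 72 in CD8 T, 2 in CD4 conventional T and 37 in Treg. Counts of all genes called moved too. Their highest values under the alternatives were 249 in all T cells, 144 in monocytes, 129 in cDC2 and 297 in the comparison of effects. The share of all genes called is not given here for each setting, so these member calls are not read as a difference. Over the 17 classes same-numbered libraries correlated between -0.137, in monocytes, and 0.091, in Treg (0 in cDC2), so the numbers were not taken to pair them; the crossed block gave 0 members and 38 genes in monocytes.

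Leaving out 1 library at a time leaves 1 genotype with a single library, which is assumed to vary like the other, so calls gained there say little. The members called ranged from 0 to 2 in all T cells (Trim69, Trim30c) and macrophages (Trim69, Trim2), and from 0 to 1 in CD8 T, NK, monocytes, B cells, cDC2, non-classical monocytes, neutrophils, mast cells or basophils and the comparison of effects. They were 30 to 32 between T and myeloid cells, 27 to 28 between macrophages and monocytes and 8 to 11 between CD8 and CD4 conventional T cells. Trim69 turned direction when 1 library was left out: its log2 fold change ranged from -1.51 to 1.51 in CD4 conventional T cells, -0.85 to 0.62 in fibroblast-like cells, -1.51 to 0.28 in NK cells, -0.33 to 2.41 in non-classical monocytes, -0.18 to 1.70 in Treg and -0.65 to 0.55 in the comparison of effects. The cause was not tested.

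The count of all genes called moved by more than 1.5 times with the setting. In all T cells it was 6, and 1 to 249 under the alternatives (34 with DESeq2); in CD8 T 11, and 5 to 199; in CD4 conventional T 29, and 2 to 118; in macrophages 2, and 0 to 39; in monocytes 0, and 0 to 144 (33 with DESeq2). The count ranged from 0 to 147 in NK cells, 0 to 310 in B cells and 0 to 233 in pDC, and from 0 to 297 in the comparison of effects, where it was 36. Leaving out 1 library gave 59 to 259 genes in all T cells, 32 to 233 in macrophages, 3 to 320 in NK cells, 138 to 410 in B cells and 40 to 169 in pDC. Without T cluster 16 the genotype counts were 2 in all T cells and 15 in CD4 conventional T, with no member called; this setting and resolution 2 in the class contrasts were added after seeing the data. The mean of Trim59 in CD4 conventional T cells was 58.8 CPM at Leiden resolution 2. In monocytes, 9 members were lower with clusters 0 and 6 joined, against 4. Of the single-gene values, 500 kept direction and call, 21 gained a call, 3 lost it and 7 turned; those lost were Trim46 (0.51 at resolution 2 and 0.92 without cluster 16) and Trim17 (-0.99 at resolution 2) between CD8 and CD4 conventional T cells. Depth limits the small classes: 12 members could be tested in neutrophils and 6 in mast cells or basophils.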
